A study of Sus scrofa with 4 samples.

Results

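Genes of the motile cilium and its axoneme were examined in lung cells of pigs carrying an LGR5-H2B-GFP knock-in, an allele that marks cells transcribing LGR5 with a green fluorescent histone. A gene was a member if its name in the count tables began with DNAH, DNAI, DNALI, CFAP, SPAG, TEKT, RSPH, DRC or ODAD followed by a digit, or was FOXJ1 or TPPP3. This gave 70 members of 29263 genes. All 4 libraries came from lung cells of this genotype sorted by fluorescence, 2 from the bright fraction (GFP-HI) and 2 from the fraction without fluorescence (GFP-NEG). Each fraction had biological replicates 1 and 2. Only the headings of the deposited normalized signal tie the replicates to pig 1 and pig 2, and 2 of these headings name another library. The pairing of libraries by animal is therefore not certain. The labels describe adult and fetal lung together without a stage for each library, while the name of the authors' comparison table says adult pig, and whether the EPCAM and NGFR antibodies of the protocol set the gates is not stated.

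Motile cilia beat because dynein motors, fixed in rows on the microtubule doublets of the axoneme, pull on the neighbouring doublet. Outer and inner dynein arms supply the force, docking complexes hold the arms, radial spokes and the nexin-dynein regulatory complex coordinate them, and tektins and other inner proteins stiffen the doublets. In the lung these structures belong to the multiciliated cells of the airway epithelium, which clear mucus and whose programme is switched on by the transcription factor FOXJ1. Sperm flagella share much of the same machinery. The primary cilium of fibroblasts and many other cells does not beat and lacks the dynein arms and spokes, but is built and maintained by the same intraflagellar transport.

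The GFP-HI libraries held 24200550 and 24689986 counts and the GFP-NEG libraries 6292253 and 7045652, so 1 count was worth 0.0453 to 0.0496 CPM in GFP-HI and 0.110 to 0.155 CPM in GFP-NEG, where CPM is a count scaled to the TMM-adjusted library size. LGR5 itself had 3218 and 3073 counts in GFP-HI against 10 and 7 in GFP-NEG. The fractions differed in cell classes: 6 of 9 fibroblast markers passed as higher in GFP-HI, 66.7% against 8.35% of all genes. Their summed level in replicates 1 and 2 was 81570 and 71100 CPM in GFP-HI against 25090 and 9079 CPM in GFP-NEG. All 8 epithelial genes tested, EPCAM and CDH1 among them, had a negative fold change. Of the 8, 2 were past the threshold, 25% against 27.6% of all genes called lower, a share near the background. The summed level of the 8 was 39.2 to 64.7 CPM in GFP-HI against 103 to 164 CPM in GFP-NEG. None of these 8 was at 0 counts in any library. Endothelial markers were lower in 9 of 9, against 27.6% of all genes. Alveolar type 2 markers were lower in 3 of 7, or 42.9%, while ABCA3 had a positive fold change (0.82, not past the threshold). The alveolar type 2 sum was 139 CPM in GFP-HI against 460 CPM in GFP-NEG in replicate 1. In replicate 2 the order was reversed, at 283 against 196 CPM.

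FOXJ1, the regulator of the motile cilium programme, was present at low counts in both fractions. It had 58 and 30 counts in GFP-HI, or 2.63 and 1.49 CPM, and 49 and 34 counts in GFP-NEG, or 7.61 and 3.73 CPM. Both GFP-HI libraries lay below both GFP-NEG libraries. The fold change was -1.45 ± 0.99 (SE) in log2 units, with a 95% interval from -3.40 to 0.50, and missed the threshold, set at 0.05 on the adjusted p of edgeR's quasi-likelihood test, where it had 0.265. In such bulk samples fewer cells of a type and less RNA per cell cannot be told apart.

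TPPP3, a microtubule-bundling protein used as a marker of ciliated airway cells and also of tendon sheath and other connective tissue cells, rose in GFP-HI. Its level was 188 and 252 CPM in the GFP-HI libraries and 68.6 and 36.2 CPM in the GFP-NEG libraries. The fractions did not overlap. The log2 fold change was 2.07 ± 0.60 (SE; edgeR, adjusted p of 0.0026), and the difference was 1.45 within replicate 1 and 2.80 within replicate 2. Without GFP-NEG replicate 2 it was 1.68 with an adjusted p of 0.241. So TPPP3, the member with the most counts, and FOXJ1, the regulator of the programme, had fold changes of opposite sign, only that of TPPP3 past the threshold. In the RefSeq annotation of Sscrofa11.1 the TPPP3 gene overlaps LRRC36 and ZDHHC1. The fold change of ZDHHC1 was 1.99 (adjusted p of 0.00205), on 935 and 646 counts in GFP-HI against 86 and 50 in GFP-NEG. The library kit, Nextera XT, does not mark strand, so reads from overlapping genes cannot be told apart by strand.

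**Figure D1:**
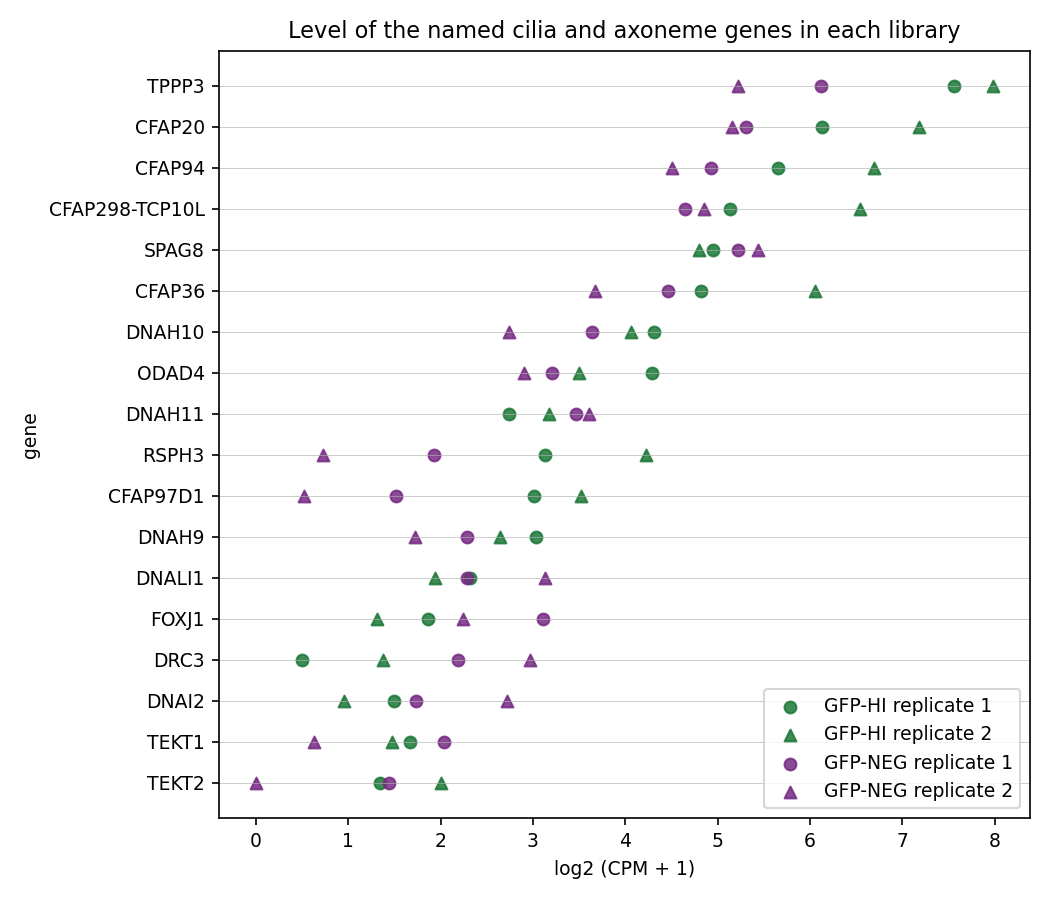
Level of 18 named members in each library, as log2 of CPM plus 1; colour marks the fraction and shape the replicate. TPPP3, CFAP20, CFAP94, CFAP298-TCP10L, CFAP36, RSPH3, CFAP97D1, DNAH9, DNAH10 and ODAD4 have both GFP-HI points to the right of both GFP-NEG points, FOXJ1, DRC3, DNAI2, DNAH11 and SPAG8 show the reverse, and DNALI1, TEKT1 and TEKT2 overlap.

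Of the 70 members 68 passed the filter on low counts and were tested. CFAP99 (9 and 1 counts in GFP-HI against 4 and 20 in GFP-NEG) and TEKT5 (6 and 2 counts in GFP-HI against 0 and 25 in GFP-NEG), a tektin of sperm, did not pass. Of the 68, 7 rose in GFP-HI, 10.3%, against 8.35% of all 19682 genes tested, a share near the background. DESeq2 called 5 members higher, against 5.6% of its genes. None fell by edgeR (3 had an unadjusted p under 0.05, and DESeq2 also called 0), against 27.6% of all genes tested, 15.2% of the 13326 with a symbol, and 24.9% of all genes in DESeq2. Of the 3 under 0.05 unadjusted, CFAP43 and CFAP77 were so low in GFP-HI that they could pass the filter only through GFP-NEG. The edgeR shares over all genes also include genes that could pass only through GFP-NEG. The median log2 fold change was 0.11 over the tested members and -0.25 over all genes tested. Under upper-quartile scaling these medians were -0.22 and -0.58, and with library size alone -0.32 and -0.68, so the members' median changed sign with the scaling. Both GFP-HI libraries lay above both GFP-NEG libraries for 18 members, 26.5% against 27.7% of all genes, and below them for 19 members, 27.9% against 42% of all genes.

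**Figure D2:**
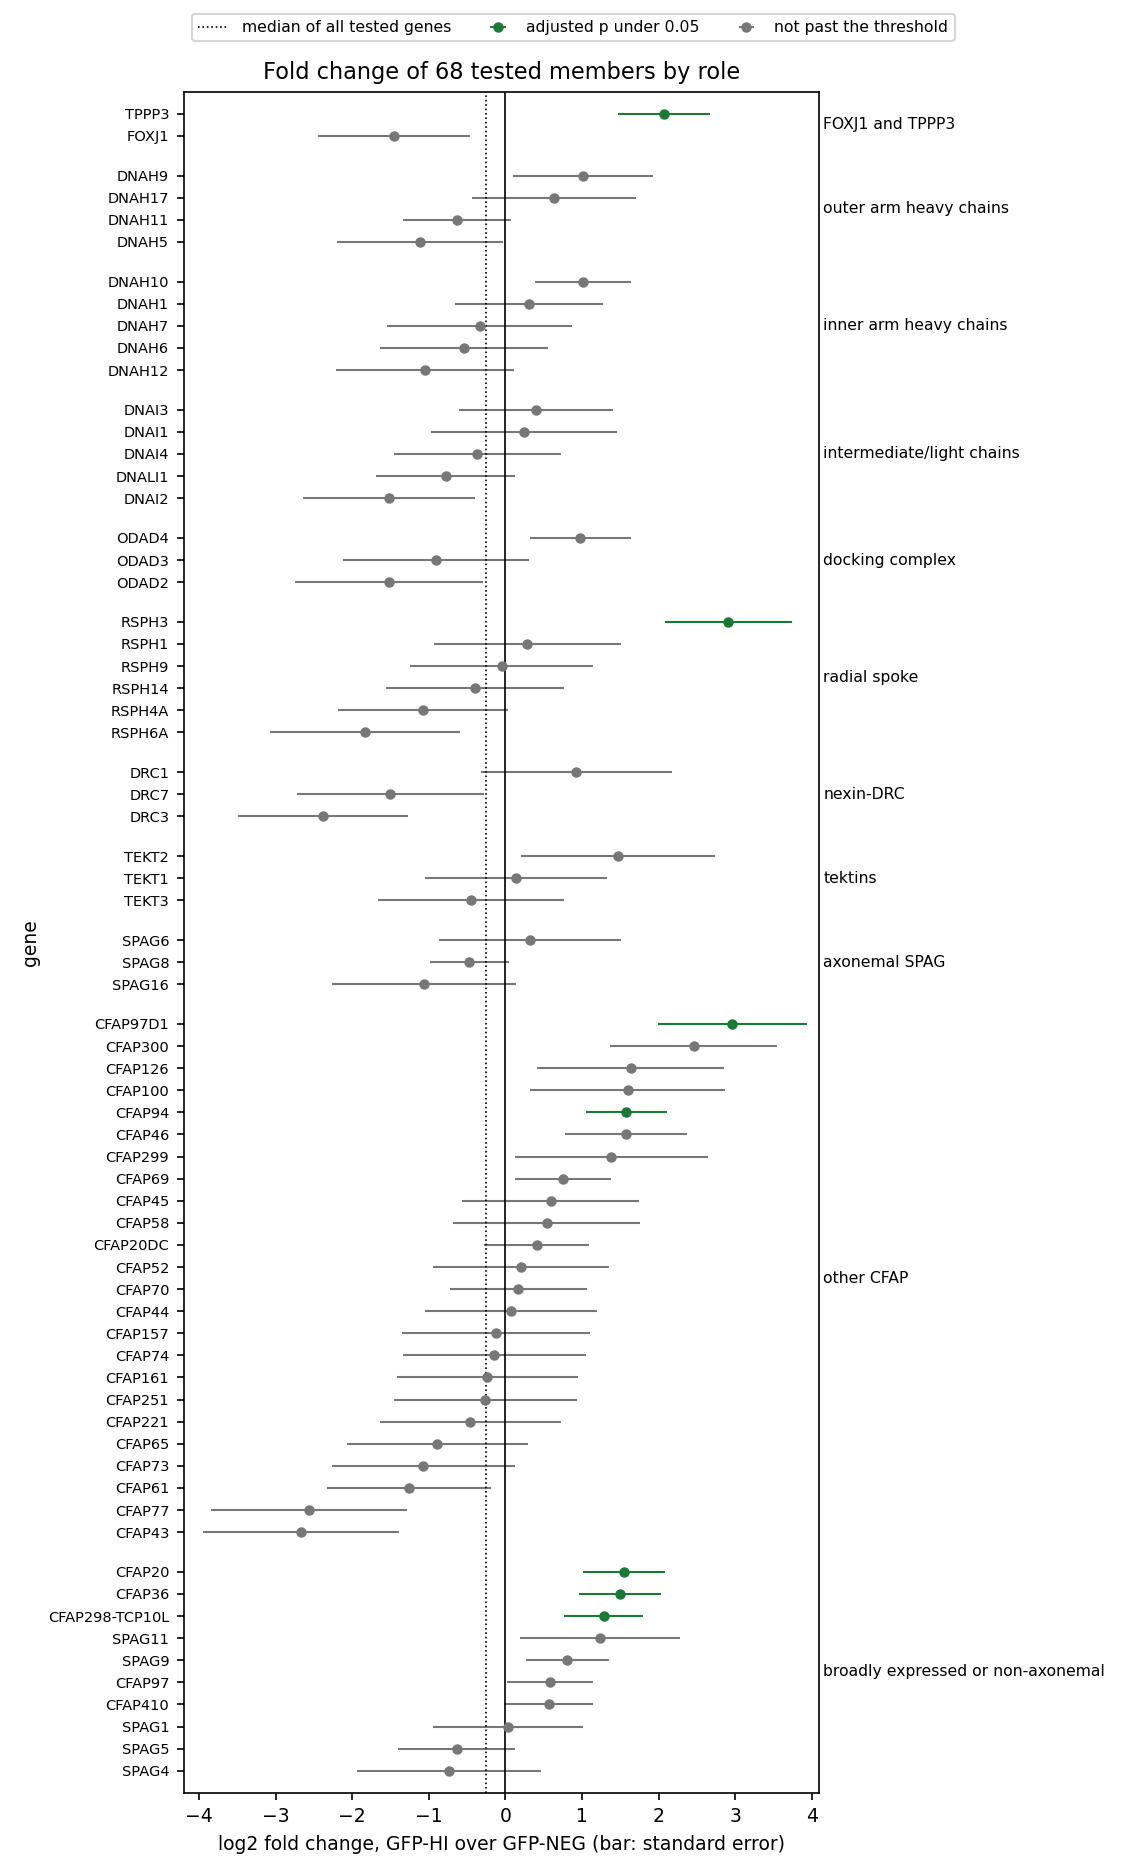
Log2 fold change of the 68 tested members, GFP-HI over GFP-NEG, grouped by role, with standard errors as bars; the dotted line is the median of all genes tested. The 7 members past the threshold (green) are TPPP3, RSPH3, CFAP97D1, CFAP94, CFAP20, CFAP36 and CFAP298-TCP10L. None of them is named DNAH, DNAI or DNALI in the tables, but CFAP94 is also named DNAI7.

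The 9 tested dynein heavy chains, the motor subunits themselves, had fold changes on both sides of 0. None passed the threshold (0 by unadjusted p under 0.05 in edgeR and 0 by DESeq2). Their log2 fold changes ran from -1.12 in DNAH5 to 1.01 in DNAH10. DNAH5, the outer arm motor most often affected in primary ciliary dyskinesia, was at 1.86 and 1.74 CPM in GFP-HI and at 2.17 and 5.59 CPM in GFP-NEG. DNAH9, the outer arm motor of the distal part of the cilium, was at 7.16 and 5.25 CPM in GFP-HI and at 3.88 and 2.30 CPM in GFP-NEG. DNAH11, the outer arm motor of the proximal part, was at 5.66 and 8.03 CPM in GFP-HI and at 10.1 and 11.2 CPM in GFP-NEG. Thus the groups were apart in all these outer arm motors, but downward in DNAH5 and DNAH11 and upward in DNAH9, none of it past the threshold. Among inner arm motors DNAH10 had the most counts, 416 and 317 in GFP-HI against 74 and 52 in GFP-NEG. The fold change of DNAH10, 1.01 ± 0.62 (SE) in log2 units, had an adjusted p of 0.205 (edgeR) and a 95% interval from -0.21 to 2.23. Summed over the 9 heavy chains, the level was 47.9 and 42.2 CPM in GFP-HI and 39.3 and 40.7 CPM in GFP-NEG.

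The 5 intermediate and light chains named DNAI or DNALI, which anchor and regulate the motors, did not pass the threshold either. Of these 5, 0 passed by unadjusted p and 0 by DESeq2. CFAP94, which also carries the name DNAI7, was grouped with the CFAP family and did pass (log2 fold change 1.58, adjusted p of 0.01, edgeR). DNALI1, a light chain of the inner arms, had 88 and 57 counts in GFP-HI against 25 and 71 in GFP-NEG, with overlapping CPM and a log2 fold change of -0.78 (edgeR; 0.54 after adjustment of p). DNAI2, an intermediate chain of the outer arms, was at 1.81 and 0.942 CPM in GFP-HI and at 2.33 and 5.59 CPM in GFP-NEG. Its groups were apart, but the difference was -0.34 within replicate 1 and -2.41 within replicate 2, so most of it lay in replicate 2. Of the 3 docking complex genes 0 passed (0 by unadjusted p and 0 by DESeq2). ODAD4 was at 18.6 and 10.3 CPM in GFP-HI against 8.23 and 6.47 CPM in GFP-NEG (log2 fold change 0.98, adjusted p of 0.256, edgeR), while ODAD2 and ODAD3 had fold changes of -1.52 and -0.90.

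Among the 6 radial spoke genes RSPH3 rose. RSPH3 encodes a spoke stalk protein that can anchor protein kinase A. It had 171 and 356 counts in GFP-HI against 18 and 6 in GFP-NEG, or 7.75 and 17.7 CPM against 2.79 and 0.658 CPM. Every GFP-HI value was above every GFP-NEG value, and the log2 fold change was 2.91 ± 0.83 (SE; edgeR, adjusted p of 0.00217). Leaving out GFP-HI replicate 2 gave 2.21 (adjusted p of 0.2) and leaving out GFP-NEG replicate 2 gave 2.18 (adjusted p of 0.114). The spoke head genes RSPH1, RSPH4A and RSPH9 were each at 0.248 to 3.73 CPM in every library, with log2 fold changes of 0.28, -1.07 and -0.05 and no call. RSPH6A, a spoke head protein of sperm flagella, had the lowest fold change of the group at -1.83 (adjusted p of 0.258, edgeR). Thus RSPH3 was called higher without the head genes of the same spoke, although a difference between them was not tested.

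In the nexin-dynein regulatory complex, DRC3 was at 0.408 and 1.59 CPM in GFP-HI and at 3.57 and 6.80 CPM in GFP-NEG. It was lower in both replicates, with a log2 fold change of -2.38 ± 1.11 (SE; edgeR, adjusted p of 0.0814). With the replicate number as a block, DRC3 fell by 2.57 on the log2 scale with an adjusted p of 0.0492 (edgeR). The block pairs the libraries of 1 animal only if the headings that name the pigs are right. DRC1 went opposite ways in the replicates, by -1.64 in replicate 1 and 3.19 in replicate 2, on 2 to 63 counts. Of the 3 tested tektins, filaments of the doublet wall, 0 passed (0 by unadjusted p and 0 by DESeq2). TEKT2 had 34 and 61 counts in GFP-HI against 11 and 0 in GFP-NEG, and its difference was -0.14 in replicate 1 and 4.51 in replicate 2. TEKT1 had 48 and 36 counts in GFP-HI against 20 and 5 in GFP-NEG. The fractions overlapped in TEKT1, and its fold change (0.14 in log2 units, edgeR, adjusted p of 0.943) was negative with upper-quartile scaling, library size alone and without GFP-NEG replicate 2. SPAG8, a protein inside the doublets, had 658 and 542 counts in GFP-HI against 234 and 387 in GFP-NEG. This was 29.8 and 26.9 CPM against 36.3 and 42.4 CPM, a log2 fold change of -0.47 ± 0.52 (SE, adjusted p of 0.511). Its gene overlaps NPR2, which rose in GFP-HI (log2 fold change 1.75, adjusted p of 0.00462, edgeR). The central apparatus genes SPAG6 and SPAG16 had fold changes of 0.32 and -1.07.

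The CFAP family holds proteins named for their association with cilia and flagella. Of the 24 tested members outside the broadly expressed group, 2 rose, 8.33% against 8.35% of all genes, a share at the background. In this group 0 fell (2 had an unadjusted p under 0.05, 0 by DESeq2), and the median log2 fold change was 0.19. CFAP97D1, needed for sperm flagella in mice, was at 7.07 and 10.5 CPM in GFP-HI and at 1.86 and 0.439 CPM in GFP-NEG. The fold change, 2.96 ± 0.97 (SE) in log2 units with an adjusted p of 0.00845 (edgeR), was the highest among the members and rested on 12 and 4 counts in GFP-NEG. CFAP94, also named DNAI7 and CASC1, had far more counts, 1093 and 2076 in GFP-HI against 189 and 198 in GFP-NEG. It was at 49.5 and 103 CPM against 29.3 and 21.7 CPM, a log2 fold change of 1.58 ± 0.53 (SE, adjusted p of 0.01). CFAP94 had groups fully apart, with a difference of 0.75 in replicate 1 and 2.24 in replicate 2. At the other end of the family CFAP43 and CFAP77 had fold changes of -2.67 and -2.56 (adjusted p of 0.0922 and 0.106, edgeR). In GFP-HI CFAP43 had 12 and 4 counts and CFAP77 had 10 and 8. Both could pass the filter on low counts only through GFP-NEG, so their direction was set by the filter. CFAP43, whose loss deforms sperm flagella, was at 0.544 and 0.198 CPM in GFP-HI and at 3.11 and 1.75 CPM in GFP-NEG. CFAP77 had 5 and 39 counts in GFP-NEG, so its level there came mainly from replicate 2. CFAP300, a factor for dynein arm assembly, was at 3.35 and 8.08 CPM against 1.09 and 0.987 CPM and did not pass (log2 fold change 2.46, adjusted p of 0.0659).

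A further 10 members are broadly expressed or act outside the axoneme. Of these 3 rose, 30% against 8.35% of all genes, while DESeq2 called 1 of the 10 higher. In this group 0 fell (0 by unadjusted p and 0 by DESeq2), and the median log2 fold change was 0.69. CFAP20, a small protein of the inner junction of doublets that is also found at centrioles, was at 69.2 and 144 CPM in GFP-HI and at 38.5 and 34.5 CPM in GFP-NEG. The log2 fold change was 1.55 ± 0.54 (SE, adjusted p of 0.0141, edgeR), with no overlap of the fractions. CFAP36, a binding partner of the ciliary GTPase ARL3, was at 27.2 and 65.5 CPM against 21.1 and 11.7 CPM (2.83-fold higher in the fit, adjusted p of 0.0168). CFAP298-TCP10L, an annotated gene that joins a dynein assembly factor with its neighbour, was at 34.2 and 92.1 CPM against 24.1 and 27.9 CPM (log2 fold change 1.28, adjusted p of 0.0403). With the replicate block its adjusted p was 0.0896. SPAG9, a scaffold of JNK signalling, was at 111 and 105.2 CPM against 72.5 and 51.3 CPM and did not pass (adjusted p of 0.255). SPAG5, a protein of the mitotic spindle, was at 4.21 and 6.89 CPM in GFP-HI and at 5.59 and 11.6 CPM in GFP-NEG.

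All 7 members that rose had a larger difference in replicate 2 than in replicate 1. Over the 68 tested members the difference was positive in both replicates for 23, negative in both for 23 and of opposite sign for 22. With GFP-HI replicate 1 left out the same 7 members passed, with GFP-NEG replicate 1 left out 4, and with GFP-HI replicate 2 left out TPPP3 alone. With GFP-NEG replicate 2 left out 0 passed in edgeR (4 were higher and 1 was lower at an unadjusted p under 0.05), and over all genes the number higher fell from 1643 to 204. These fits leave a fraction with a single library, which is then assumed to vary like the others. The summed level of the 58 members outside the broadly expressed group, FOXJ1 and TPPP3 was 265 and 313 CPM in GFP-HI and 223 and 213 CPM in GFP-NEG. The exact two-sided permutation test over the 4 libraries gave p = 0.333, the smallest value it allows. Without CFAP94 the sums were 216 and 210 CPM against 193 and 191 CPM, and with library size alone the log2 ratio of the mean sums, 0.41, became -0.02.

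**Figure D3:**
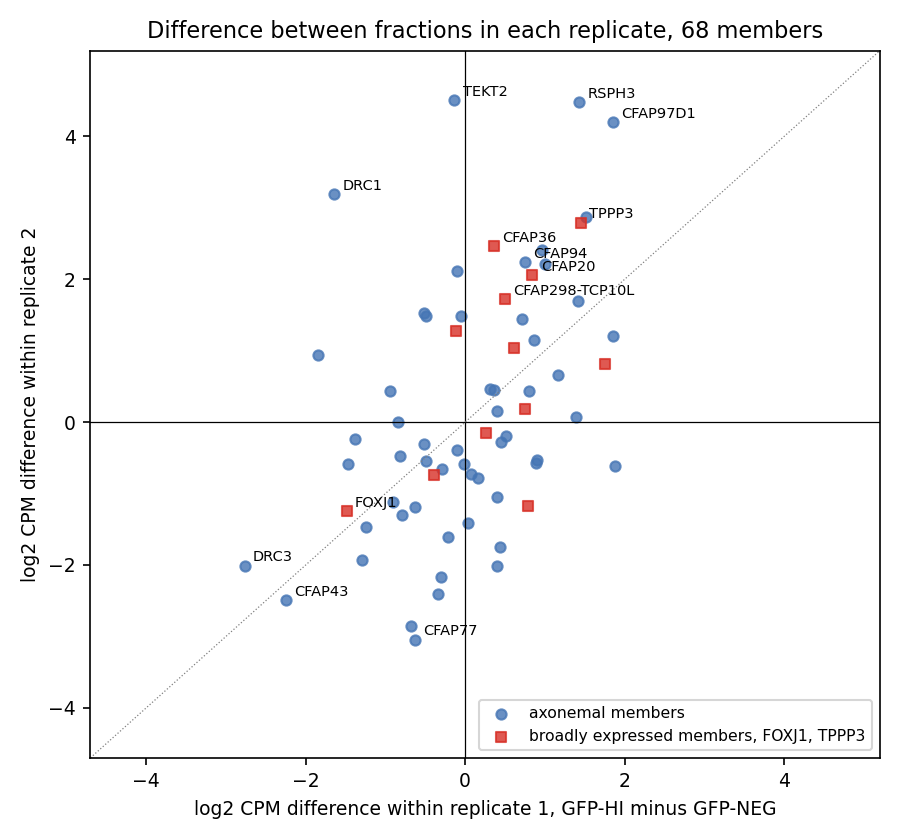
Difference in log2 CPM between GFP-HI and GFP-NEG within replicate 1 (x axis) and within replicate 2 (y axis) for 68 members; the dotted line marks equal differences. FOXJ1, DRC3 and CFAP43 lie low in both replicates, although CFAP43 could pass the filter on low counts only through GFP-NEG. The 7 called members lie above the dotted line, and DRC1 and TEKT2 change sign between the replicates.

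Most members were measured on few counts. A mean level under 5 CPM over the 4 libraries was found for 51 of the 68 tested members, with a median standard error of 1.19 on the log2 scale. At that level 1 member rose and 0 fell (edgeR), and the median log2 fold change was -0.24. Of all 7895 genes tested at that level 0.405% rose and 51.6% fell, with a median of -3.06, and of the 2759 of them with a symbol 31.9% fell, with a median of -1.41. The low members had a median nearer 0 than other genes of low counts, as values set side by side without a test. Part of that background was set by the filter. Genes near 0 counts in GFP-HI could enter it only through GFP-NEG, and thus only as lower. The size of that part was not counted. Above 20 CPM were 7 members, of which 5 rose (TPPP3, CFAP20, CFAP94, CFAP298-TCP10L and CFAP36), against 16.4% of 7881 genes. The other two were SPAG8 and SPAG9. Genes not typical of lung were listed beside the members. Germ cell restricted genes had 8 of 31 tested with a median of -1.78 and 3 called lower (37.5%). Long genes of muscle, ear, retina and brain had 14 of 22 tested, a median of -1.52, 3 lower (21.4%) and 1 higher. Other tissue restricted genes had 12 of 28 tested, a median of -0.53 and 4 lower (33.3%). Of all genes 27.6% were called lower. BOLL, SYCP2, ZPBP2, LRP1B, PCLO, OTOGL, APOA2 and TTR, called lower in these lists, could pass the filter on low counts only through GFP-NEG. Their direction was set by the filter. CSMD1, the long gene called higher, could pass only through GFP-HI. Most of the listed odorant receptor genes were not tested, and all 9 that were tested were lower. Of the list, 100 and 103 genes were at 0 counts in GFP-HI replicates 1 and 2, against 48 and 14 in GFP-NEG. A gene at 0 counts in GFP-HI could pass the filter on low counts only through GFP-NEG. For such genes a lower call was the only one open, so the 9 lower calls say little about the list.

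The other genes of the ciliary pathway were taken from lists outside the member families. Genes of intraflagellar transport, its motors and the BBSome carry cargo in primary and motile cilia alike. Of these 40 genes 23 rose, 57.5% against 8.35% of all genes and 16.4% of all genes above 20 CPM. In this list 0 fell (edgeR, with 0 by unadjusted p and 0 by DESeq2), and the median log2 fold change was 1.60. ARL3, the GTPase that releases cargo inside the cilium, had 1339 and 2390 counts in GFP-HI against 120 and 92 in GFP-NEG (log2 fold change 2.64, adjusted p of 3.3e-05). IFT74, a core subunit of the transport train, had 455 and 804 counts against 37 and 22 (log2 fold change 2.90, adjusted p of 6.26e-05). IFT140, of the retrograde train, had 1960 and 970 counts against 116 and 108 (log2 fold change 2.20, adjusted p of 0.000286). For 36 of the 40 both GFP-HI libraries lay above both GFP-NEG libraries, against 27.7% of all genes, and KIF17 alone had a negative fold change (-0.55, adjusted p of 0.765). The summed level of this list was 1943 and 2476 CPM in GFP-HI and 1012 and 524 CPM in GFP-NEG. The fibroblast markers given above differed in the same direction between fractions and between the GFP-NEG replicates. Between the GFP-HI replicates the sum of those markers went the opposite way. DCN, LUM and FBLN1 were higher in GFP-HI replicate 2 than in replicate 1. PDGFRA, PDGFRB, COL1A1, COL1A2, COL3A1 and THY1 were lower. The part of the fibroblast markers in the result was not tested. The number called was 9 without GFP-HI replicate 2 and 1 without GFP-NEG replicate 2.

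Dynein assembly factors, which fold the arms in the cytoplasm, had 0 of 13 past the threshold (1 by unadjusted p, higher, and 0 by DESeq2) and a median of 0.55. Of 52 other axonemal and ciliated cell genes 6 rose, 11.5% against 8.35% of all genes, and 1 fell, 1.92% against 27.6%, with a median log2 fold change of 0.36. DESeq2 called 3 of them higher and 1 lower, and upper-quartile scaling left 2 higher. Among those that rose were CCDC170 (2.37), MNS1 (2.27), IQCD (2.12), MORN2 (1.78) and NME7 (1.56), given as log2 fold changes. CCDC170 had 727 and 686 counts in GFP-HI against 66 and 26 in GFP-NEG. TMEM190, the gene that fell, had 3 and 0 counts in GFP-HI against 13 and 38 in GFP-NEG. It could pass the filter on low counts only through GFP-NEG, so its direction was set by the filter. Without GFP-NEG replicate 2 neither the 6 nor TMEM190 passed, since 0 genes of this list were called in either direction.

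Among 10 tested regulators of multiciliated cells 3 fell, 30% against 27.6% of all genes, and none rose (0 by unadjusted p and 0 by DESeq2). These 3, CCNO, GMNC and MYB, were so low in GFP-HI that they could pass the filter on low counts only through GFP-NEG. A lower call was thus the only one open to them, and their number says nothing about the list. CCNO, a cyclin-like protein needed to multiply the centrioles from which cilia grow, had 0 and 0 counts in GFP-HI against 11 and 35 in GFP-NEG, at least 11.5-fold lower taking the GFP-NEG library with less of it over a floor of 3 counts per library. GMNC, which starts the multiciliated programme, had 1 and 4 counts in GFP-HI against 9 and 9 in GFP-NEG (adjusted p of 0.0392, edgeR). MYB, which acts early in that programme and also in blood progenitors and lymphocytes, had 12 and 9 counts against 46 and 76 (adjusted p of 0.00137). Immune markers moved in the same direction, with 11 of 14 lower and a summed level of 329 to 481 CPM in GFP-HI against 2119 to 2646 CPM in GFP-NEG, and their part in the result was not tested. MCIDAS, a partner of GMNC in the programme, had 0 and 0 counts in GFP-HI against 1 and 11 in GFP-NEG and was not tested. RFX2, a ciliary transcription factor, had 1181 and 339 counts in GFP-HI against 297 and 188 in GFP-NEG, and RFX3, of the same family, 508 and 382 against 114 and 161. Their log2 fold changes of 0.08 and 0.25 did not pass the threshold. The median of this list was -0.34, also with CCNO set at its bound. With the replicate block, and likewise with DESeq2, 2 of the regulators were called lower, and without GFP-NEG replicate 2 only 1 was.

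Of the markers of ciliated cells outside the member families, CAPS had 166 and 194 counts in GFP-HI against 41 and 59 in GFP-NEG, CCDC78 had 79 and 90 against 44 and 12, and DEUP1 had 65 and 112 against 28 and 48. Their log2 fold changes of 0.42, -0.0038 and -0.18 did not pass the threshold. SNTN, of the cilium tip, had 12 and 39 counts against 1 and 12, a log2 fold change of 0.69 with overlapping fractions. ZBBX had 0 and 21 counts against 16 and 19, a difference of -2.12 in log2 units (edgeR, adjusted p of 0.187) with both GFP-HI libraries below both GFP-NEG libraries. These markers were chosen after their values were seen. LRRIQ1, another marker of ciliated cells, had 38 and 127 counts in GFP-HI against 27 and 33 in GFP-NEG. CCNO and MCIDAS, given above and planned as markers of the same cells, had 0 and 0 counts in GFP-HI. Both fractions thus held low counts of most of the markers named here, but GFP-HI held none of CCNO or MCIDAS. Airway secretory and basal genes, from the epithelial neighbours of ciliated cells, were lower in 4 of 10 (40% against 27.6% of all genes). They were higher in 0 (0 by unadjusted p and 0 by DESeq2). Their summed level was 239 and 468 CPM in GFP-HI and 1092 and 350 CPM in GFP-NEG, so that the order differed between the replicates.

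**Figure D4:**
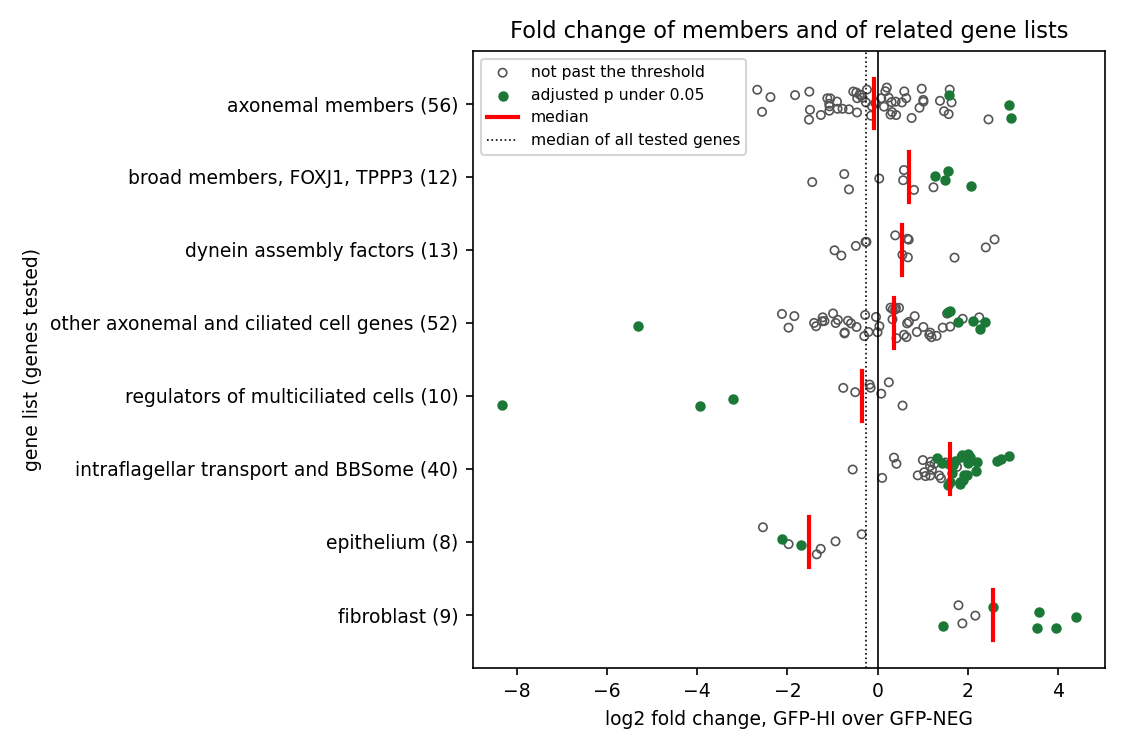
Log2 fold change of each tested gene in 8 groups: the members, split in 2, and lists outside the member families; red bars are medians, filled points passed the threshold, and the dotted line is the median of all genes tested. The axonemal members centre near 0 (-0.09), the intraflagellar transport and BBSome list at 1.60, and the epithelial list at -1.52. Over all tested members the median is 0.11, so its sign depends on the split, which puts CFAP20 outside the axonemal members.

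The authors' deposited table lists 68 members, with CFAP99 and without CFAP157 and TEKT5, and calls 5 higher (TPPP3, RSPH3, CFAP97D1, CFAP94 and CFAP20) and 0 lower, against 8.2% and 11.2% of its 16250 genes. In the authors' deposited table CFAP36 has an adjusted p of 0.0587 and CFAP298-TCP10L one of 0.0987. A further 9 genes of the member families appear in the count tables by identifier only and are not members by the rule: CFAP54, CFAP57, CFAP91, CFAP92, CFAP206, DNAH2, DNAH3, DNAH14 and SPAG17. Of these 4 were tested and 0 passed (0 by unadjusted p and 0 by DESeq2), with log2 fold changes from -1.55 in CFAP54 to 0.68 in DNAH3. In the RefSeq annotation 19 of the 69 members found there overlap another protein-coding gene, among them DNAH9, DNAH11, DNALI1, DRC3 and CFAP94, and their counts are uncertain to that extent.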

How the data were processed

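RNA was sequenced from GFP-HI and GFP-NEG lung cells, 2 libraries each. The authors deposited 1 table of raw counts for each library, and a comparison table that per its file headers holds the same counts (0 values differed), normalized signal, a log2 fold change with its test statistic (score), and its p-value, raw and adjusted. The normalized signal deposited was not used, since 2 of its headings name another library. Per the submitters' processing notes, featureCounts (Subread 1.5.2) and DESeq2 1.37.6 were used. The aligner, strand setting and filters are not given in the sources used here. Replicates came from separate pigs per the headings of the normalized signal, which name pig 1 and pig 2 in both fractions. Since 2 of these headings name another library, pairing by animal through the replicate numbers is not certain (r of the replicate deviations across genes 0.16).

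All genes were fitted with edgeR 4.0.16 (R 4.3.3; quasi-likelihood F test, TMM, filterByExpr, 19682 genes, group only), with Benjamini-Hochberg adjustment over all genes, and the procedure was tested on simulated data. CPM are TMM-scaled. Within-replicate differences are of log2 CPM with a prior count of 2. The standard error is the fold change divided by the square root of F, and 95% intervals use the normal distribution. DESeq2 1.42.0, other scalings and filters, thinning, the block and left-out libraries were alternatives. Members and lists were chosen with earlier results of these data known. With 2 libraries per fraction, edgeR's p-values rest on a spread estimated largely across genes, not on a gene's own libraries alone. Named are FOXJ1, TPPP3, up to 10 called members per direction, and in each role the most abundant member and that with the lowest p; other members named were chosen after their values were seen. Levels per coding length were not computed, so levels are compared within a gene or list. Sequences, coordinates and the values of 1 listed gene are not reported here. A symbol was found for 844 genes given only by identifier. No column of values was left without a sample (0).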

Additional observations from a re-analysis of the deposited data

How the results depend on the processing

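The number of members higher in GFP-HI, 7, was 4 under upper-quartile scaling, 2 with library size alone and 4 with the stricter filter (10 counts in 2 libraries), and all of these were among the 7. It was 7 with RLE scaling and without a filter, 5 with DESeq2, 6 with GFP-HI thinned (5 of the 7, and CFAP300) and 6 with the replicate block. Members lower were 1 (DRC3) with the replicate block and 0 in the other 11 alternatives. The block on the replicate number changed no other call of a named member than DRC3 and CFAP298-TCP10L. Regulators lower were 2 in place of 3 with the replicate block, DESeq2, thinning, no filter and the stricter filter. The members' median was -0.22 under upper-quartile scaling and -0.32 with library size alone, where the log2 ratio of the summed axonemal level was -0.024. TEKT1 had -0.10 and -0.17 under those scalings and from -0.65 to 1.84 with a library left out. Leaving out each library in turn gave 0 to 7 members higher, 1 to 3 regulators lower, 0 to 1 assembly factors higher, 0 to 7 other axonemal and ciliated cell genes higher and 0 to 2 lower, 1 to 23 transport genes higher, and over all genes 204 to 1539 higher and 1373 to 4680 lower. The causes were not tested.

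All genes higher numbered 1083 (upper quartile), 888 (library size alone) and 951 (stricter filter), and all genes lower 3182 (stricter filter) and 3568 (thinned). Other axonemal and ciliated cell genes higher numbered 2 under each of upper-quartile scaling and library size alone, and 3 with the stricter filter and with DESeq2. Assembly factors higher numbered 1 without a filter and 1 after thinning. The members under 5 CPM had a median standard error of 1.19 on the log2 scale, and the part of depth in it was not tested.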
